A study of Mus musculus with 6 samples.

Results

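The genes described here carry the chemical signals that nerves and lymphocytes share: Penk (the enkephalin precursor), Adrb1 (the beta-1 adrenergic receptor), Chat and Ache (the enzymes that make and break down acetylcholine), and Arrb1 and Arrb2 (the beta-arrestins that shut off and redirect adrenergic and other receptors). They are a named set, chosen with earlier results of these data known. Of these 6 genes, 5 had a row among the 17832 genes of the table, and all 5 passed the filter on low values (10 or more normalised reads in at least 3 libraries). Penk passed it only through the CD4 libraries. Chat had no row among the genes analysed here, so no value is given for it. The lowest total of any row was 11 reads over the 6 libraries.

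RNA came from CD8+ and CD4+ spleen cells of C57BL/6 mice, isolated by flow cytometry. Every mouse, in both groups, carried a subcutaneous osmotic mini-pump that delivered angiotensin II, a peptide hormone that constricts blood vessels. The sources used here give no dose, age or sex, and only the CD4 and CD8 gates are named. No untreated mice were analysed, so the effect of angiotensin II is not addressed. There were 3 CD8 libraries, labelled 389, 395 and 387, and 3 CD4 libraries, labelled 385, 393 and 395. The labels do not say that these numbers are separate animals, so p-values measure the spread between libraries, which may be technical.

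Between 10264246 and 14628599 reads were recovered per library. Each library had the coreceptor transcripts of its label, since the sum of Cd8a and Cd8b1 ran from 6154 to 16592 normalised reads in the CD8 libraries and from 80.9 to 145 in the CD4 libraries, and 3 CD4 lineage markers summed to between 304 and 490.03 in CD8 and between 5622 and 8557 in CD4. Transcripts of other spleen cells were present in every library. Erythroid markers summed to between 32074 and 105761, macrophage and monocyte markers to between 5414 and 29601, and T cell markers to between 7528 and 32897. In such mixed samples, fewer cells of a type and less RNA per cell cannot be told apart.

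Proenkephalin is cut by convertases at pairs of basic residues into short opioid peptides, the enkephalins, which act mainly on delta and mu opioid receptors. In the spleen, sympathetic nerves release noradrenaline, which acts on beta adrenergic receptors that raise cyclic AMP through the G protein Gs. In mice, T cells that express choline acetyltransferase pass the signal on as acetylcholine, and acetylcholinesterase ends it by hydrolysis. Receptor kinases phosphorylate an active receptor, and beta-arrestins then bind it, uncouple it from its G protein and link it to clathrin adaptors.

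Penk, which lies on chromosome 4, had nearly all of its reads in the CD4 libraries. To show what its reads encode, the enkephalin segments of the Penk reading frame are given 5′ to 3′ from the GENCODE M21 transcripts of the GRCm38 build. A reading frame of 807 bases held 7 enkephalin segments, 6 that end in a methionine codon and 1 that ends in a leucine codon. Capitals mark the codons of the enkephalin pentapeptide, lower case marks the codons on either side, and all 7 copies follow codons for a pair of basic residues.
Penk copy 1, methionine type: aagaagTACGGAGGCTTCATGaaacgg
Penk copy 2, methionine type: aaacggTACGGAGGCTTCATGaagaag
Penk copy 3, methionine type: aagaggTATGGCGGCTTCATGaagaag
Penk copy 4, methionine type: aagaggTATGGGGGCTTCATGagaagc
Penk copy 5, methionine type: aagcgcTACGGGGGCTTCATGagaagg
Penk copy 6, leucine type: aagaggTATGGGGGCTTCCTGaagcgc
Penk copy 7, methionine type: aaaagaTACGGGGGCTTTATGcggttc

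Penk was lower in the CD8 libraries. It had 0, 0 and 1.68 normalised reads in CD8 389, 395 and 387, and 79.6, 83.6 and 55.3 in CD4 385, 393 and 395. The groups did not overlap, and the CD4 libraries lay between 55.3 and 83.6. In recovered reads, the CD8 libraries held 2 reads in all and the CD4 libraries 220. The depth-corrected ratio of CD4 over CD8 was 115, with an exact binomial 95% interval of 31.4 to 953 that covers counting error only. A count of 0 allows up to 3 reads, or 2.78 normalised reads in CD8 389 and 3.49 in CD8 395. The annotation places exons of A830012C17Rik on the strand opposite to Penk, and whether reads were counted by strand is not stated, so reads of that transcript, not analysed here, cannot be told apart from those of Penk.

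The difference passed the test over all genes. Since Penk passed the filter only through the CD4 libraries, it had to be higher there to be tested. With every CD8 value under 10, its groups could then not overlap. The log2 fold change of Penk (CD8 minus CD4, after 1 was added to each value) was -5.71 (SE 0.55), and limma's adjusted p was 0.0114. This fitted size depends on the added 1 and is no bound on the ratio. Penk was the only 1 of the 5 measured genes that limma called at an adjusted p under 0.05, where 0.49% of the 13877 genes tested were called in either direction, 0.281% as higher and 0.209% as lower in CD8. It was also the only one whose groups did not overlap, as was the case for 10.2% of all genes tested. EdgeR and DESeq2 on the recovered reads also called Penk, with adjusted p of 0.0182 and 1.59e-07, and neither tool called any of the other 4 genes. EdgeR called 0.425% of all genes tested and DESeq2 2.3%, with 1.16% higher and 1.14% lower in CD8. The call was lost without CD8 395 (limma adjusted p = 0.0749) and when only genes with 50 or more normalised reads in 3 libraries were tested (limma adjusted p = 0.0785). When any CD4 library was left out, Penk fell below the filter. With the filter applied in at least 2 libraries, a setting chosen after seeing the data, limma's adjusted p was 0.0434, 0.0673 and 0.027 without CD4 385, 393 and 395.

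**Figure D1:**
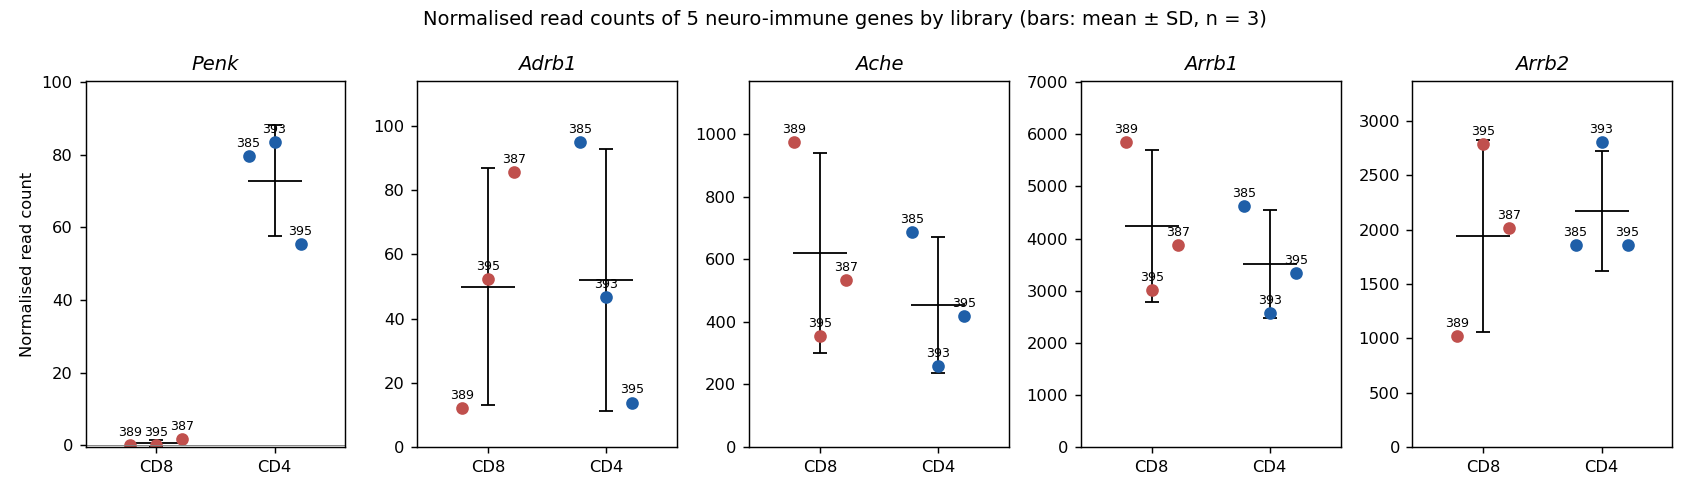
Normalised read counts (y axis, linear, a separate scale for each gene) of Penk, Adrb1, Ache, Arrb1 and Arrb2 in the 3 CD8 (red, left) and 3 CD4 (blue, right) libraries, each point marked with its library number, with bars for the mean ± SD. The CD8 and CD4 points of Penk do not overlap, with at most 1.68 in CD8 and at least 55.3 in CD4, while those of the other 4 genes do.

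Markers of helper and regulatory T cells differed between the groups in the same direction as Penk. The 5 regulatory T cell markers Foxp3, Il2ra, Ikzf2, Ctla4 and Lrrc32 summed to 358, 497 and 549 in CD8 389, 395 and 387 and to 2475, 5144 and 3358 in CD4 385, 393 and 395. None of these markers was at 0 in the CD8 libraries, where Foxp3, the transcription factor of regulatory T cells, had 12.95, 61.6 and 35.2. Per 1000 of the marker sum, Penk stood at 0, 0 and 3.06 in the CD8 libraries and at 32.2, 16.2 and 16.5 in the CD4 libraries. Within the CD4 group the lowest marker sum, in CD4 385, went with the highest Penk per marker, so Penk did not keep a fixed ratio to this sum. The 6 follicular helper and memory markers summed to between 538 and 1171 in CD8 and between 1429 and 3060.0 in CD4. Among them, Pdcd1, Icos and Tox2 did not overlap between the groups, but Bcl6, Cxcr5 and Maf did. Of 8 megakaryocyte and platelet markers, 7 had a row, and their sum was 474 to 490.03 in CD8 and 1076 to 1397 in CD4. Itgb3, an integrin gene that other cells also express, made up 68.2% of it, and without Itgb3 the sum was 239.98 to 388 in CD8 and 177 to 357 in CD4, with overlap. The part of any of these cells in the Penk difference was not tested.

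The genes whose profile over the 6 libraries was most like that of Penk were Lrrc32, Cd4 and Cd40lg. Likeness was measured as the root-mean-square difference of log2(value + 1) after each gene's own mean was removed, over 10568 genes with a mean of at least 50 normalised reads. It was 0.52 for Lrrc32, a surface anchor of latent TGF-beta, 0.57 for Cd4, and 0.79 for Cd40lg, the ligand of helper cells for CD40. The median over all genes compared was 2.93, near the 2.90 that a gene with equal values in every library would have. Such a flat gene would have 1.14 for Adrb1, 0.63 for Ache, 0.39 for Arrb1 and 0.49 for Arrb2. Each median thus mostly reflects how much the member itself varied. The likeness to Penk is a description of 6 libraries that split by cell type, and it carries no test.

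Other genes of the opioid system were mostly low. Of 14 listed genes of opioid peptides, processing and receptors, 7 had a row and 5 were tested. Limma called 0 of the 5 in either direction and edgeR called 0. DESeq2 called 2 of the 5, where it called 2.3% of all genes tested, and 2 had an unadjusted limma p under 0.05, as 5.82% of all genes did. All 5 point estimates were above 0, with a median log2 fold change of 0.99, against 0.04 over all genes tested. Among these 5, Oprd1, described below, passed the filter only through the CD8 libraries, so that its sign was fixed by the filter. The listed members with the highest means were Dpp3, a peptidase that can degrade enkephalins, and Anpep, the cell surface aminopeptidase CD13, which removes the first residue of enkephalins. Dpp3 averaged 1323 ± 86.2 normalised reads in CD8 and 1319 ± 90.6 in CD4 (SD, n = 3 each).

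Oprd1 and Anpep had higher values in every CD8 library than in any CD4 library, but limma did not call them, and 10.2% of all genes tested had groups that did not overlap. Anpep had 468, 553 and 636 normalised reads in CD8 389, 395 and 387, and 149, 187 and 21.3 in CD4 385, 393 and 395. Its log2 fold change was 2.68 (SE 0.74) with a limma adjusted p of 0.316, and DESeq2's adjusted p was 0.0149. Oprd1, which encodes the delta opioid receptor and was picked out after its values were seen, had 12.0, 37.2 and 24.3 in the CD8 libraries and 5.14, 2.23 and 1.06 in the CD4 libraries. These values rest on 13, 32 and 29 reads in CD8 and on 6, 2 and 1 reads in CD4. Oprd1 passed the filter only through the CD8 libraries, so that it had to be higher there to be tested. Its log2 fold change was 2.76 (SE 0.63) with a limma adjusted p of 0.169, and DESeq2's adjusted p was 0.0183.

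Pcsk1, a convertase that cuts proenkephalin, was also picked out after its values were seen. Its values were 9.25, 29.1 and 26.9 in CD8 389, 395 and 387 against 6.85, 10.0 and 11.7 in CD4 385, 393 and 395, so that its groups overlapped (log2 fold change 0.99, SE 0.54, limma adjusted p = 0.946). The sum of 8 dendritic cell markers, like Anpep and Oprd1, was higher in every CD8 library than in any CD4 library. It was 13230, 18165 and 16618 in CD8 389, 395 and 387, and 4832, 5536 and 1843 in CD4 385, 393 and 395. None of the 8 was at 0, and among them Batf3 and Zbtb46 overlapped between the groups. The class II genes H2-Aa and H2-Ab1, which B cells and macrophages also express, made up 77.04% of this sum. Anpep was lowest in CD4 395, where this sum was also lowest. The macrophage and monocyte (5414), neutrophil (428) and natural killer (602) sums were lowest in CD4 395 too. The part of any of these cells in the values was not tested.

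**Figure D2:**
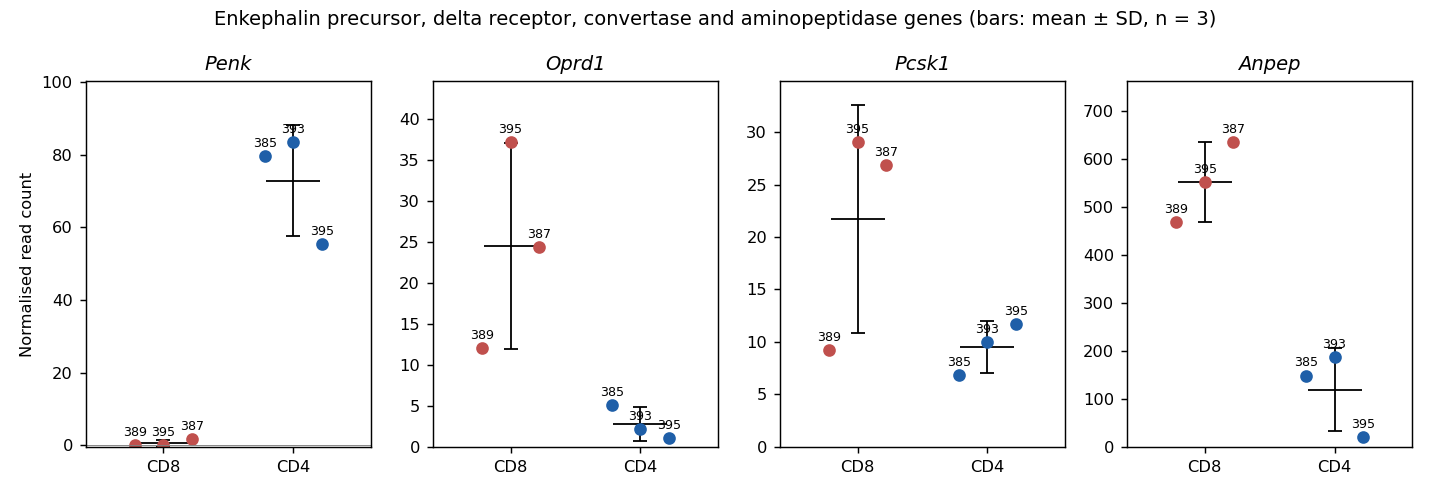
Normalised read counts (y axis, linear, a separate scale for each gene) of Penk, Oprd1, Pcsk1 and Anpep in the 3 CD8 (red, left) and 3 CD4 (blue, right) libraries, marked with library numbers, with bars for the mean ± SD. Penk lies at or below 1.68 in CD8 and between 55.3 and 83.6 in CD4, while Oprd1 and Anpep are higher in every CD8 library than in any CD4 library.

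The differences in Ache and Arrb1 between the groups were within the spread of their libraries, and both genes followed the erythroid markers. Ache, on chromosome 5, encodes acetylcholinesterase, which is also carried on the surface of red blood cells. It had 974, 353 and 533 normalised reads in CD8 389, 395 and 387, and 687, 257 and 418 in CD4 385, 393 and 395. The groups overlapped. CD8 389 was highest and CD4 393 lowest. Annotated Gm42456 on the opposite strand, not analysed here, shares exon sequence with Ache, and Mir8116, which lies within Ache on its strand, had its own row of 28.7 to 88.8. How reads were split among these genes is not known. The log2 fold change was 0.44 (SE 0.45, 95% interval -0.61 to 1.49) with a limma adjusted p of 0.946.

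Arrb1, on chromosome 7, encodes beta-arrestin 1. It had 5853, 3013 and 3875 normalised reads in CD8 389, 395 and 387, and 4632, 2569.7 and 3341 in CD4 385, 393 and 395. The groups overlapped, and CD8 389 was again highest and CD4 393 lowest. The log2 fold change was 0.26 (SE 0.30, 95% interval -0.44 to 0.96) with a limma adjusted p of 0.946. Without CD8 389 the fold changes of Ache and Arrb1 were 0.05 and 0.00.

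Ache, Arrb1 and the sum of 10 erythroid markers put the 6 libraries in the same order, in 15 of 15 pairs of libraries. This order was not particular to Ache and Arrb1, since Cltc, Slc44a1 and Brca1, named below, also had it. The share of all genes with this order was not computed. The erythroid sum was 105761, 52273 and 57701 in CD8 389, 395 and 387, and 75520, 32074 and 56401 in CD4 385, 393 and 395. Ache ranged 3.78-fold between libraries, whereas Ache per 1000 of the erythroid sum ranged only from 6.76 to 9.23, or 1.37-fold. Arrb1 ranged 2.28-fold, and from 55.3 to 80.1 per 1000 of the erythroid sum, or 1.45-fold. Arrb1 thus varied less than the erythroid sum, with its highest ratio in CD4 393, where the erythroid sum was lowest. All 10 erythroid markers, among them Klf1 (an erythroid transcription factor), were above 0 in every library. Taken 1 by 1, each of the 10 shared the order of Ache in 12 to 15 of the 15 pairs, and the sum without Car2, the marker with the highest mean, did so in 14. Mouse megakaryocytes also express Ache, and the megakaryocyte and platelet sum shared its order in 6 of 15 pairs, but in 12 without Itgb3. The part of erythroid cells in the values of Ache and Arrb1 was not tested.

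Among the genes most like Ache were Brca1, a DNA repair gene, and Marchf8, a ubiquitin ligase gene, at root-mean-square differences of 0.041 and 0.049 on the log2 scale, where the median over genes was 0.64. Those most like Arrb1 were Polh, a DNA polymerase gene, Rfwd3, a ubiquitin ligase gene, and Ift140, a gene of cilium transport, at 0.052, 0.054 and 0.057, where the median was 0.42. These likenesses describe 6 libraries and carry no test.

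The region before the Ache start is shown because Ache kept the order of the erythroid markers. RefSeq's promoter table on GRCm38.p6 held 3 of the 6 genes, Adrb1, Chat and Ache. The 250 bases before the Ache start, chr5:137288004-137288253 on the + strand, read 5′ to 3′ with the GC boxes (GGGCGG, searched on both strands) in capitals:
Ache promoter: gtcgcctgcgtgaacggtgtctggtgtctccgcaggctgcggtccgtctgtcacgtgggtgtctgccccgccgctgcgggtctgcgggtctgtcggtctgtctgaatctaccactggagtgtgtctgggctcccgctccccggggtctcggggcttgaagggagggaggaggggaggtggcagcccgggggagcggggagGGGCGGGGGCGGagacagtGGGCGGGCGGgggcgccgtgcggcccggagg
The window held 4 GC boxes, all on the strand shown, and the last pair overlap each other. A GC box was found in 32.7% of 32851 promoter windows of the same length. The GATA motif AGATAA, the core of sites bound by the erythroid factor GATA1, was not among these letters on either strand, and 9.99% of the windows held it. CACCC, a core of sites of KLF factors, was found 1 time, on the opposite strand, and in 52.0% of the windows. Such matches describe letters only.

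Arrb2, on chromosome 11, encodes beta-arrestin 2 and ran against Arrb1 over the libraries. It had 1019.6, 2784 and 2011 normalised reads in CD8 389, 395 and 387, and 1855, 2807 and 1855 in CD4 385, 393 and 395. CD8 389 was lowest, and CD4 393 and CD8 395 were highest and nearly equal, so the groups overlapped. The log2 fold change was -0.25 (SE 0.36, 95% interval -1.10 to 0.60) with a limma adjusted p of 0.948. Its sign was not stable, being 0.15 without CD8 389 and 0.42 when values were rescaled to the T cell markers, which moved the median of all genes from 0.04 to 0.71. Relative to the median of all genes, Arrb2 stood at -0.29 before and after this rescaling.

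The beta-arrestin balance differed more between libraries than between groups. The ratio of Arrb1 to Arrb2 in normalised reads was 5.74, 1.08 and 1.93 in CD8 389, 395 and 387, and 2.50, 0.915 and 1.80 in CD4 385, 393 and 395. It was highest in CD8 389, the library with the highest erythroid sum and the lowest T cell sum, and lowest in CD4 393, where the reverse held. Arrb1 and Arrb2 agreed on the order of only 2 of 15 pairs of libraries. Arrb2 and the sum of 9 T cell markers shared the order of 12 of 15 pairs, as did Arrb2 and the B cell and natural killer sums. The macrophage and monocyte sum shared 11 pairs with Arrb2, or 12 without Vcam1, its marker with the highest mean. Taken singly, 8 of its 10 markers shared 12 or more pairs, as did 7 of the 9 T cell markers. The B cell sum was 98.6% Ighm, the immunoglobulin mu chain, and without it 13 pairs were shared. Tyrobp, Fcer1g and Eomes, which myeloid cells or T cells also express, made up 96.0% of the natural killer sum. The T cell sum was 7528, 24829 and 19179 in CD8 389, 395 and 387, and 17008, 32897 and 25892 in CD4 385, 393 and 395. Arrb2 per 1000 of this sum ran from 105 to 135 in CD8 and from 71.6 to 109 in CD4, overlapping between the groups. The genes most like Arrb2 were Clec2d, S100a10 and Klhl36, at root-mean-square differences of 0.032, 0.055 and 0.082, where the median was 0.56. The part of any cell type in these values was not tested.

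**Figure D3:**
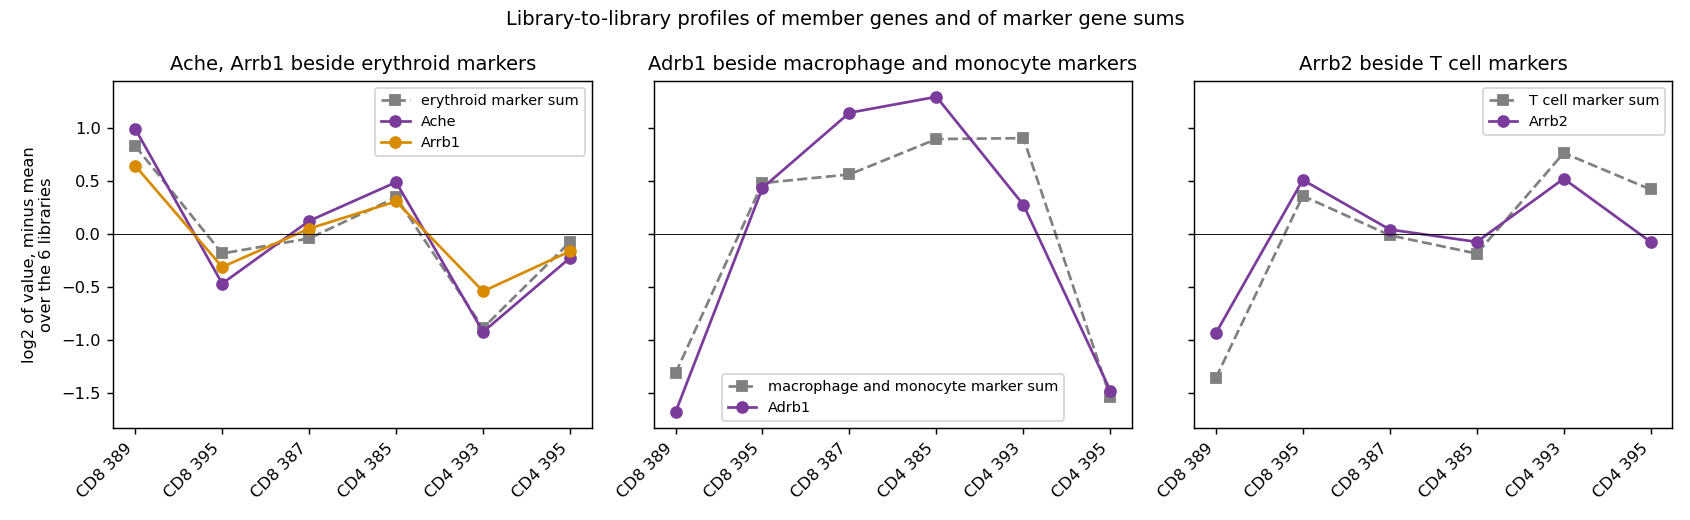
Library profiles, as log2 of the normalised value minus its mean over the 6 libraries (y axis), with CD8 libraries left and CD4 libraries right, of Ache and Arrb1 beside the erythroid marker sum, Adrb1 beside the macrophage and monocyte sum, and Arrb2 beside the T cell sum (dashed grey). Ache and Arrb1 share the order of the erythroid sum, with CD8 389 highest and CD4 393 lowest, and Adrb1 is low in CD8 389 and CD4 395, where macrophage markers are also lowest.

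Adrb1, on chromosome 19, encodes the beta-1 adrenergic receptor, a receptor for noradrenaline that couples to Gs, and it was low in every library. It had 12.0, 52.3 and 85.6 normalised reads in CD8 389, 395 and 387, and 95.02, 46.8 and 13.8 in CD4 385, 393 and 395. The groups overlapped almost fully, and Adrb1 ranged 7.9-fold between libraries. Its means were 49.97 ± 36.8 in CD8 and 51.9 ± 40.8 in CD4 (SD, n = 3 each). The log2 fold change was -0.06 (SE 0.87, 95% interval -2.09 to 1.98) with a limma adjusted p of 0.992. This wide interval holds large differences in either direction, so equal levels in the groups are not shown. Without CD8 389 the estimate was 0.73 and without CD4 395 it was -0.79.

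Macrophage and monocyte markers were lowest in the libraries in which Adrb1 was lowest. Their 10 genes summed to 6341, 22054 and 23337 in CD8 389, 395 and 387, and to 29428, 29601 and 5414 in CD4 385, 393 and 395. Adrb1 per 1000 of this sum ran from 1.58 to 3.67, or 2.32-fold, and all 10 markers were above 0 in every library. Adrb1 and this sum shared the order of 11 of 15 pairs of libraries, as did Adrb1 and the neutrophil sum. Adrb1 and the B cell sum shared 12 pairs, but 7 without Ighm. The genes most like Adrb1 were Sema6d, a semaphorin gene, Adgre1, which encodes the macrophage antigen F4/80, and Lrp4, at root-mean-square differences of 0.26, 0.27 and 0.29, where the median was 1.17. The part of macrophages in the Adrb1 values was not tested.

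Set against each other per kilobase of annotated exon, the beta-arrestins were the most abundant of these transcripts. Arrb2 averaged 681 ± 311 normalised reads per kilobase in CD8 and 764 ± 193 in CD4 (SD, n = 3 each), and Arrb1 380.1 ± 130.3 in CD8 and 314 ± 93.2 in CD4. The ranges of Arrb2 and Arrb1 overlapped in CD8, because of CD8 389, and did not overlap in CD4. Ache followed with 134 ± 69.1 per kilobase in CD8 and 98.2 ± 46.9 in CD4, below every Arrb1 value. Adrb1 averaged 14.8 ± 10.9 per kilobase in CD8 and 15.3 ± 12.1 in CD4. Penk lay below Adrb1 in every CD8 library and, at 44.6 ± 9.36 per kilobase, above it in every CD4 library. The lengths are unions of all annotated exons in GENCODE M21 on GRCm38, which is not the build named for the counting, so the values per kilobase are approximate.

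No listed gene around the adrenergic receptor passed limma's test between the groups. Of 10 listed genes of catecholamine synthesis, transport and breakdown, 5 had a row and 4 were tested, with 0 called in either direction. Maoa, a monoamine oxidase that breaks down noradrenaline, averaged 93.3 ± 46.1 in CD8 and 75.4 ± 31.2 in CD4 (SD, n = 3 each). Th and Dbh, which encode the enzymes that make noradrenaline, had no row and were not analysed here. Of 7 other adrenergic receptor genes, 1 had a row, Adra2a, with 28.7, 9.30 and 2.52 in CD8 389, 395 and 387 and 3.42, 22.3 and 4.26 in CD4 385, 393 and 395. It was below the filter and was not tested.

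The signalling steps after the receptor were nearly all detected. All 20 listed genes of Gs and cyclic AMP signalling were tested, and limma called 0 of them, with a median log2 fold change of -0.07. Gnas, the alpha subunit of Gs, averaged 7405 ± 537 in CD8 and 6233 ± 678 in CD4 (SD, n = 3 each). Adcy7, an adenylyl cyclase of blood cells, averaged 5337 ± 1088 in CD8 and 5101 ± 539.5 in CD4. Adcy4, picked out after its values were seen, was the only 1 of the 20 (5.0%, against 5.82% of all genes tested) with an unadjusted limma p under 0.05. It had 15.7, 23.2 and 22.7 in CD8 389, 395 and 387 and 4.28, 10.0 and 1.06 in CD4 385, 393 and 395 (limma adjusted p = 0.475). These values rest on 17, 20 and 27 reads in CD8 and on 5, 9 and 1 reads in CD4. All 5 receptor kinase genes were tested and 0 were called. Grk2, the kinase first described for beta adrenergic receptors, averaged 4721 ± 1429 in CD8 and 5309.8 ± 801 in CD4, and Grk6 3447 ± 1010 in CD8 and 4180.3 ± 831 in CD4. Of the 10 clathrin and adaptor genes 0 were called, with a median of 0.14. Cltc, the clathrin heavy chain, averaged 6463 ± 2247 in CD8 and 5448 ± 1743 in CD4, and Dnm2, the dynamin that pinches off vesicles, 3400.3 ± 476 in CD8 and 3613 ± 450.1 in CD4.

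On the cholinergic side, Ache was measured but the genes of acetylcholine synthesis and packing were not. Of 9 listed genes of choline supply and acetylcholine handling, 5 had a row and were tested, and 0 were called. Slc5a7, the neuronal choline transporter, Slc18a3, the vesicular acetylcholine transporter, Bche, the related cholinesterase, and Prima1, which anchors acetylcholinesterase in neuronal membranes, had no row and were not analysed here. Slc44a2, a choline transporter-like gene, averaged 3476 ± 1211 in CD8 and 4285 ± 1052 in CD4 (SD, n = 3 each), and Slc44a1 502 ± 87.9 in CD8 and 455 ± 80.1 in CD4. Of 18 acetylcholine receptor genes 5 had a row and 3 were tested, with 0 called. Chrnb2, a nicotinic beta subunit, averaged 88.8 ± 16.8 in CD8 and 116 ± 37.6 in CD4, and Chrnb1, the muscle-type beta subunit, 43.2 ± 15.8 in CD8 and 26.7 ± 4.67 in CD4. Chrna7, a nicotinic subunit that has been described on macrophages among other cells, had no row and was not analysed here.

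Over the 8 lists together, 58 of 93 genes had a row and 52 were tested. Limma and edgeR called 0 of the 52, and DESeq2 called 2, Oprd1 and Anpep, where DESeq2 called 2.3% of all genes. The unadjusted limma p was under 0.05 for 3 of the 52 (Oprd1, Anpep and Adcy4), or 5.77%, where 5.82% of all genes tested were below it. In the lists without these genes, limma, edgeR and DESeq2 called 0 and no unadjusted limma p was under 0.05. The groups did not overlap for 5 of the 52, or 9.62%, near the 10.2% of all genes. The median log2 fold change was 0.10, with 31 estimates above 0 and 21 below.

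**Figure D4:**
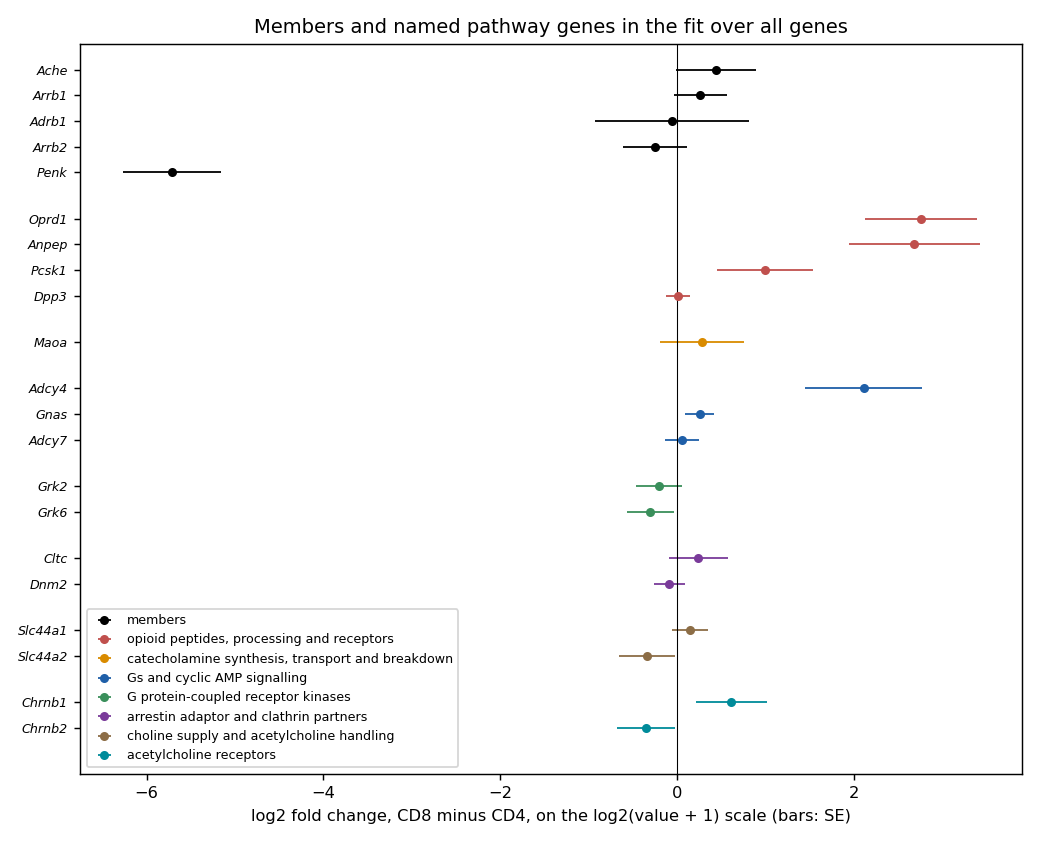
Log2 fold changes from log2(value + 1), as CD8 minus CD4 (x axis, bars for SE), of the 5 measured genes (black) and the 16 tested pathway genes named in the text, grouped by list and coloured as in the legend. Penk lies at -5.71, apart from the rest, while Oprd1, Anpep and Adcy4 lie above 2 without passing limma's test.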

How the data were processed

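RNA sequencing covered 6 libraries, made with stranded poly(A) kits per the labels' protocols. The authors deposited normalised read counts, a signal in which each gene's reads were divided by the library's size factor. The submitters' processing notes name STAR 2.7.5c, featureCounts 2.0, DESeq2 and GRCm39, without roles, and no source used here names the annotation or strand setting. Whole reads were recovered, since 100% of the values came out as multiples of 1 read (tolerance 0.001 reads). A count of 3 reads equals 2.52 to 3.49 normalised reads.

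Differences were tested with limma 3.58.1 (R 4.3.3), using log2(value + 1) and a mean-variance trend. The 13877 genes tested had at least 10 normalised reads in 3 or more libraries. P-values are two-sided and Benjamini-Hochberg adjusted, with calls under 0.05. EdgeR 4.0.16 and DESeq2 1.42.0 on the recovered reads called 59 and 319 genes, against 68 by limma. Other alternatives were pseudocounts, filters, scalings, library weights and leaving out each library. The fits were tested on simulated data. The members, lists and markers were chosen with earlier results of these data known. Genes named beside the members were, per list, the called ones or the 2 highest means, plus the 3 closest profiles per member; any others were picked after their values were seen. Some genes that this rule names are not reported here. Only gene names, exon lengths, overlaps and sequences came from GRCm38 references.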

Additional observations from a re-analysis of the deposited data

How the results depend on the processing

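Penk was lower in CD8 under each of the 13 alternatives that gave it a value. In all of these but the fit with no filter, it passed the filter only through the CD4 libraries, which fixed its direction. The fit with no filter gave a log2 fold change of -5.71. The estimates of Ache and Arrb1 were higher in CD8 under all 16 of their alternatives, but were never called. They were small without CD8 389 (0.05 and 0.00, where the median of all genes was 0.03) and without CD4 393 (0.08 and 0.06). No direction was thus established for Ache or Arrb1. Penk was called in 11 of its 13, with adjusted p from 1.59e-07 to 0.0785. Its log2 fold change depended on the pseudocount and tool, from -6.86 by DESeq2 to -3.80 with a pseudocount of 5. It was -5.71 with a filter at 50, where it was not called, and -6.18 to -5.47 without 1 CD8 library; with the filter in at least 2 libraries, an alternative chosen after seeing the data, it was -6.18 to -5.47 without 1 library, not called without CD8 395 (adjusted p = 0.0611) or CD4 393 (-5.60, adjusted p = 0.0673). Adrb1 and Arrb2 changed sign with library weights (1.39 and 0.0148), after rescaling to T cell markers (0.57 and 0.42) and among fits without 1 library (-0.79 to 0.73 and -0.57 to 0.15), and neither was called. The cause was not tested. Relative to the median of all genes after that rescaling, Adrb1 stood at -0.13 and Arrb2 at -0.29.

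Limma called 68 genes, 39 higher and 29 lower in CD8. The count was 104 with a pseudocount of 5, 42 with a filter at 50, 363 with library weights, 319 by DESeq2, 110 after rescaling (93 higher and 17 lower), and 7 to 46 without 1 library, lowest without CD8 395 (7), CD8 387 (9) and CD4 393 (19). Pathway genes called were 0, but 3 with library weights (Adcy4, Anpep and Oprd1) and 2 by DESeq2. No paired analysis was possible because the groups share only the number 395. Few reads of the gene limit the estimates of Penk in CD8 and of Oprd1 and Adcy4 in CD4.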
